A study of Homo sapiens with 8 samples.

Results

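The PGC-1 coactivators and the transcription regulators that act with them on mitochondrial genes were examined as a set of 10 genes, namely PPARGC1A, PPARGC1B, PPRC1, ESRRA, ESRRG, PPARA, PPARD, NRF1, TFAM and KLF15. The genes were chosen by name, with no threshold on their values but with earlier results of these data known. Each was found by its Ensembl identifier in the tables of both cell lines, as 10 of 25431 listed genes in 769-P and 10 of 24190 in CAKI-1. 769-P and CAKI-1 are established human renal cell carcinoma (RCC) lines. The cells were kept for 16 hours in medium prepared without branched-chain amino acids (BCAA), either left so or given back BCAA, with valine at 0.17 mM and both leucine and isoleucine at 0.38 mM, and the study asked which transcripts respond to BCAA in RCC cells. All cells otherwise shared an RPMI 1640 base without amino acids of its own and dialyzed serum. For routine culture the paper lists RPMI 1640 for 769-P and MEM for CAKI-1, so a change of base medium goes with the line. The labels name no engineered change of a gene in any group. Each line stands for 1 tumor, so genotype goes with the line. RNA-seq values of 8 libraries were analysed, 2 for each line and condition, which is fewer per condition than the study states. Nothing in the labels says that the 2 came from separate cultures, so the p-values measure the spread between these libraries, which may be technical.

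PGC-1 proteins bind nuclear receptors and other factors on chromatin and raise the transcription of genes for respiration and fatty acid oxidation. In the kidney, an organ that lives on oxidative metabolism, PGC-1α with its partners ERRα, NRF1 and the PPARs sets the supply of mitochondrial proteins, and TFAM carries the program to mitochondrial DNA. In clear cell RCC this program is known to be low.

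Libraries held from 30979773 to 64256834 reads on listed genes. In 769-P, depth went with the condition, since the shallower library with BCAA had 55829324 reads and the deeper one without had 40130258. In CAKI-1 the ranges of 40473264 to 47054568 with BCAA and 30979773 to 41601676 without overlapped. Values are reads divided by 1 size factor per library, and each table was scaled on its own, so levels in 769-P and CAKI-1 are set side by side without a test. Of 10 markers of renal tubule and clear cell RCC, 9 were listed in 769-P and 7 in CAKI-1. CA9, and in CAKI-1 also LRP2 and PAX2, were not analysed here. The markers differed widely in level, so their summed value mostly follows the most abundant ones. In 769-P the sum was 129496 and 133511 with BCAA and 140700 and 138450 without. There 2 of 9 were called higher and 3 lower, beside 20.3% and 18.2% of all genes. In CAKI-1 the sum was 79985 and 83210 with BCAA and 121607 and 117489 without. Of 7 markers there, 3 were called lower and none higher, beside 9.05% and 10.8% of all genes. The part of this shift in the results was not tested. Of 8 markers of blood, endothelial, liver, neuronal and muscle cells, 4 were listed in 769-P, with at most 41 reads in all per library, and 1 in CAKI-1, with at most 2. In bulk RNA, fewer cells that express a gene and less of its RNA per cell cannot be told apart.

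Promoters were read for the regulators because NRF1, one of them, is a DNA-binding factor known to act on the promoters of others. RefSeq windows of the 250 bases before a transcription start (GRCh38.p14) were matched for 9 of 10 genes, 18 windows in all. NRF1 itself had no window, and ESRRG had 8 of the 18. The NRF1 word (GCGC, 1 base of any kind, then TGCGC), or its reverse complement, was in 3 of the 18 windows and in 5.07% of all 35116 windows. The 3 matches are shown in capitals within 30 bases of plus-strand sequence each, 93, 63 and 20 bases before the start. The match of ESRRA is the reverse complement of the word.
ESRRA, chr11:64305421-64305450: tcgtccgggcGCGCAGGCGCcgcccgcccc
TFAM, chr10:58385337-58385366: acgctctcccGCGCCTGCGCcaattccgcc
PPARA, chr22:46150758-46150787: gggctgggcgGCGCATGCGCggggcccggg

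The ERR element TCAAGGTCA (0.319% of all windows) and the CRE TGACGTCA (1.65%) were in none of the 18 windows, on either strand. Other starts of these genes were not read, so a word missing here may be present at another start. The 2 PPARGC1A windows have starts at 24472905, outside the gene span given below, and at 23881101, inside it. The 1 PPARGC1B window, with its start at 149771940, also lies inside the gene span. The ETS word CCGGAAG (8.52% of all windows) was in 1, a PPARA window, and the amino acid response word TGATGNAA (3.14%) in 1, an ESRRG window. Whole windows follow for ESRRA, which fell with BCAA in both lines, and for PPARD, which among the members had the largest called fall in 769-P. Both are on the plus strand, with 78% and 70.8% G and C, and the NRF1 word of ESRRA is in capitals.
ESRRA, chr11:64305274-64305523: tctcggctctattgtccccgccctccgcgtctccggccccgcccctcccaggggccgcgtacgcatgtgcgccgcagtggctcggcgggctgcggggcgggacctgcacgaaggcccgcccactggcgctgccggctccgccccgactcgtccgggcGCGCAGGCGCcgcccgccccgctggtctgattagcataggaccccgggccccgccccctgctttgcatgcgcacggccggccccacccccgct
PPARD, chr6:35342308-35342557: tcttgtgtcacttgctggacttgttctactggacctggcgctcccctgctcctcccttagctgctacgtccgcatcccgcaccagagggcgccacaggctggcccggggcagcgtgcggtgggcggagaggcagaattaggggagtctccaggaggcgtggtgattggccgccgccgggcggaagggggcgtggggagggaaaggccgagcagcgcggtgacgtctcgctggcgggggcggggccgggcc

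At baseline, which is here the culture without BCAA, ESRRA, TFAM and PPRC1 were the most abundant of the 10 genes in both lines, and ESRRG and KLF15 were close to absent. Levels between genes are compared per length, as RPKM, the reads per kilobase of exon scaled to the library's total of listed reads. In 769-P, ESRRA stood at 32.5 ± 0.837 RPKM (SD, n = 2), TFAM at 22.03 ± 0.338 and PPRC1 at 18.6 ± 0.191. PPARD followed at 7.62 ± 0.237 RPKM, NRF1 at 3.77 ± 0.106, PPARGC1A at 2.74 ± 0.0430, PPARA at 1.61 ± 0.0381 and PPARGC1B at 0.768 ± 0.0352. Each of these 8 genes was above the next in both libraries.

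In CAKI-1 the order began with ESRRA at 30.9 ± 0.0226 RPKM, PPRC1 at 19.6 ± 0.578 and TFAM at 16.9 ± 0.327. PPARD stood at 4.93 ± 0.895 RPKM, NRF1 at 3.90 ± 0.289, PPARA at 1.21 ± 0.0360 and PPARGC1B at 0.521 ± 0.0247. PPARGC1A held another place in the 2 lines, since in CAKI-1 it came after PPARGC1B, at 0.0559 ± 0.0134 RPKM against 2.74 RPKM in 769-P. ESRRG (0.0046 RPKM in 769-P, 0.0214 in CAKI-1) and KLF15 (0.0045 and 0.0212) overlapped each other in both lines. With the longest transcript as the length in place of all exons, PPARGC1A came before NRF1 in 769-P, at 4.72 against 4.36 RPKM. This order is that without BCAA, and it differed in part with BCAA. In 769-P with BCAA, TFAM and ESRRA were close (25.6 and 25.4 RPKM over all exons), as were NRF1, PPARGC1A and PPARD (4.83, 4.76 and 4.41). In CAKI-1 with BCAA, TFAM and PPRC1 were close (22.3 and 21.9 RPKM).

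**Figure D1:**
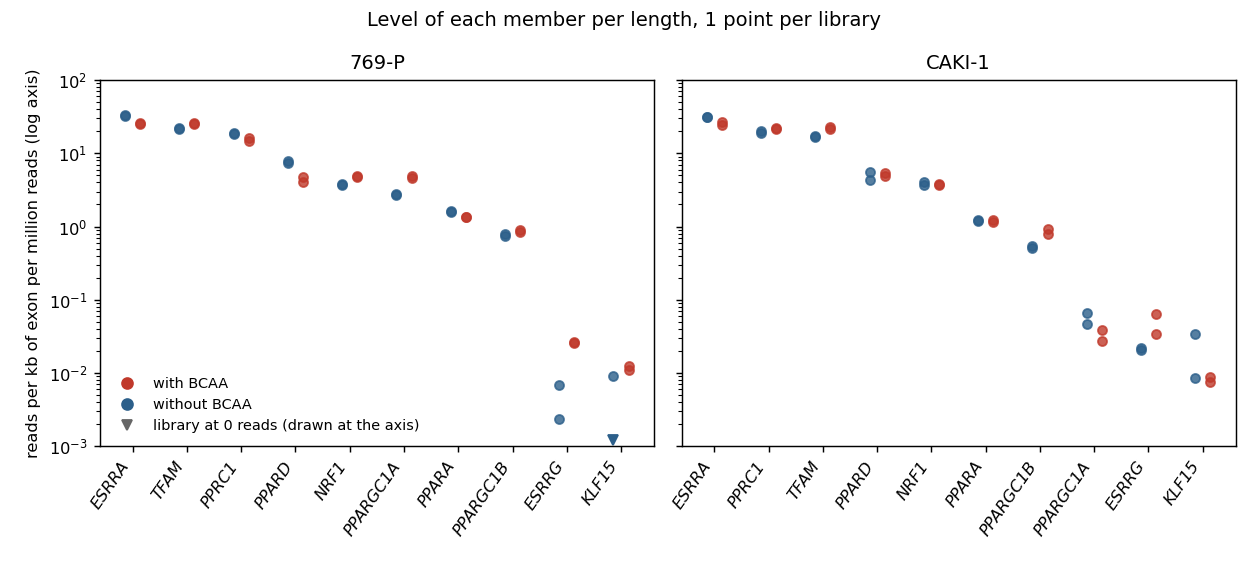
Level of the 10 genes per length in each library (log axis, RPKM), ordered by the mean without BCAA in each line; blue points are libraries without BCAA, red points libraries with BCAA, and a triangle is a library at 0 reads. PPARGC1A sits at 2.74 RPKM without BCAA in 769-P and at 0.0559 in CAKI-1, while ESRRA, TFAM and PPRC1 lead in both.

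With BCAA, 769-P had called changes in both directions within the set. In that line, PPARGC1A, NRF1, TFAM and ESRRG rose and PPARD, ESRRA, PPRC1 and PPARA fell, so that 4 of 10 were called higher and 4 lower by limma at a Benjamini-Hochberg adjusted p under 0.05. Among all 22391 genes tested in that line, 20.3% were called higher and 18.2% lower, 38.4% in all. In CAKI-1, TFAM and PPARGC1B rose and ESRRA fell, 2 and 1 of 10, where 10.8% and 9.05% of 21347 genes were called, 19.9% in all. TFAM rose and ESRRA fell in both lines.

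The libraries with BCAA lay above both libraries without in 6 genes and below in 4 in 769-P, so that no gene overlapped between conditions, beside 33.6% of all genes above, 33.5% below and 67.0% without overlap. In CAKI-1, 4 genes lay above, 4 below and 2 overlapped, beside 28.9% of all genes above, 28.8% below and 57.7% without overlap. The median log2 fold change of the 10 was 0.19 in 769-P, where the median of all genes was -0.02, and 0.01 in CAKI-1, where it was -0.01. The 6 genes above in 769-P include ESRRG and KLF15, with at most 18 and 2 reads per library. Both raise the 769-P median, which is thus not a measure of the well-read genes. Each of the 10 passed the low-value filter (a mean of at least 1) in both lines, while 8 in 769-P and 7 in CAKI-1 had at least 100 reads in every library.

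**Figure D2:**
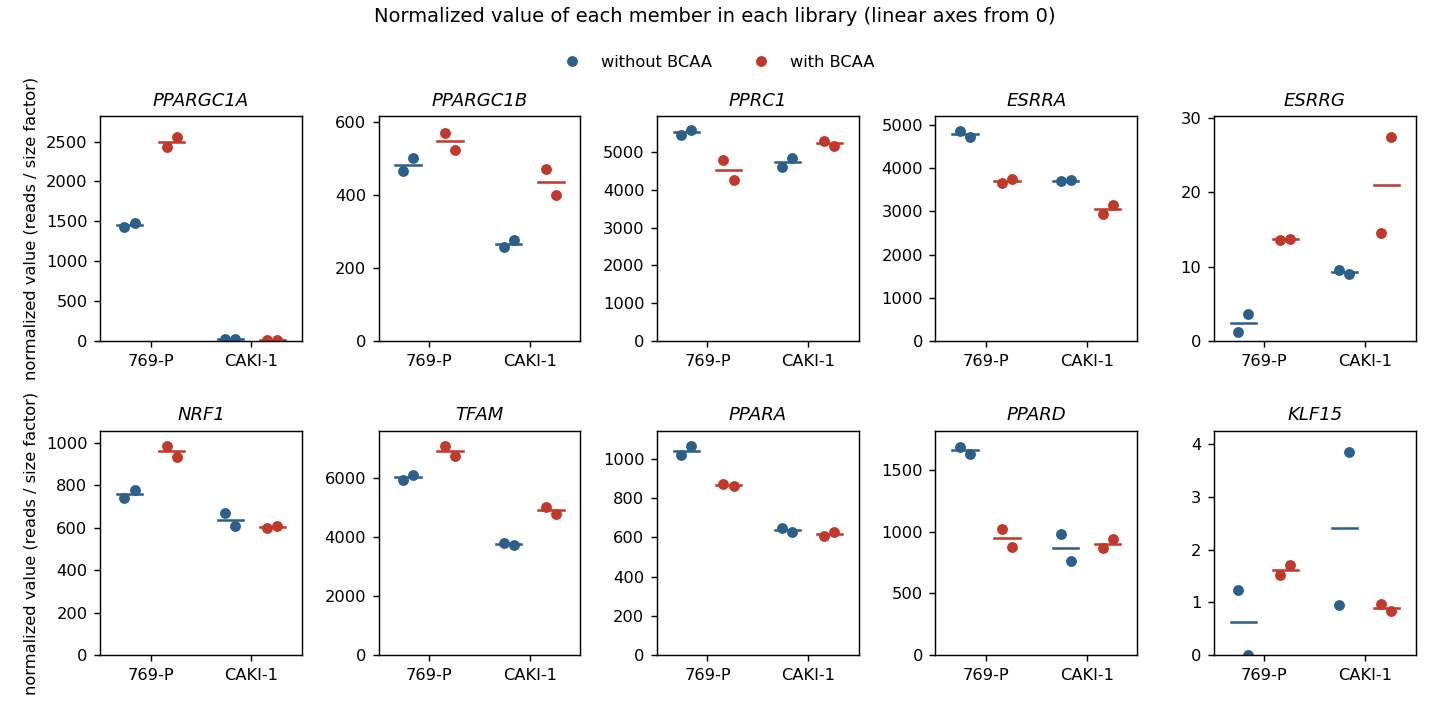
Normalized value (reads divided by the library's size factor, linear axes from 0) of each gene in each library; blue points are libraries without BCAA, red points libraries with BCAA, and bars are means of 2. In 769-P every red pair lies apart from its blue pair, with PPARGC1A, NRF1 and TFAM higher and PPARD, ESRRA, PPRC1 and PPARA lower, while KLF15 stays at 3 reads or fewer per library.

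PPARGC1A (ENSG00000109819, chr4:23755041-23904089, minus strand) encodes PGC-1α, the coactivator that answers to fasting, cold and exercise in normal tissues. In 769-P its values were 2430 and 2554 with BCAA and 1431 and 1480 without, from 3205, 2987, 1152 and 1210 reads. Both libraries with BCAA lay well above both without. The mean rose from 1455 ± 34.5 to 2492 ± 87.8 (SD, n = 2), which is 1.71-fold or 0.78 on the log2 scale (SE 0.06, limma adjusted p = 8.28e-07). With all libraries thinned to the same number of reads the log2 difference was 0.76. Thinning draws reads at random and keeps ratios on average, so it does not test whether depth has a part.

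In CAKI-1, PPARGC1A had 12 and 20 reads with BCAA and 21 and 22 without, or values of 11.7 and 16.6 against 19.96 and 28.3. The groups did not overlap, with the libraries without BCAA on the higher side, but the margin was a few reads. The log2 difference of -0.73 (SE 0.45) had a 95% interval from -1.73 to 0.27 and was not called (limma adjusted p = 0.31). It was called with the spread estimated from all 8 libraries (limma, SE 0.20, adjusted p = 0.0156). That spread is shared with 769-P, where the gene had 1152 to 3205 reads per library, so this SE may be too small for CAKI-1. Fits that left out a library are given further on. The BCAA effect was 1.504 higher in 769-P than in CAKI-1 on the log2 scale (95% interval 0.90 to 2.11, limma interaction, adjusted p = 0.00177).

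PPARGC1B (ENSG00000155846, chr5:149730298-149855022, plus strand) encodes PGC-1β, a coactivator of much the same targets that is less tied to stimuli. In CAKI-1 the gene stood at 470 and 400 with BCAA and 257 and 277 without, and the groups lay apart. It rose 1.63-fold there, by 0.70 on the log2 scale (SE 0.13, limma adjusted p = 0.00265). In 769-P the values of 570 and 523 with BCAA against 465 and 501 without were close, with a difference of 0.18 (95% interval -0.04 to 0.40, limma adjusted p = 0.19). The effect in 769-P was 0.52 lower than that in CAKI-1 (SE 0.17, limma adjusted p = 0.0395), and this call was lost with TMM scaling (adjusted p = 0.0535) and at equal depth (0.0845).

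PPRC1 (ENSG00000148840, chr10:102132994-102150331, plus strand) encodes PRC, the third coactivator of the family, known to be induced by serum and to bind NRF1. It was by far the most abundant of the 3 per length. In 769-P it fell from 5453 and 5596 without BCAA to 4790 and 4263 with BCAA, 1.22-fold lower, or by 0.29 on the log2 scale (SE 0.06, limma adjusted p = 0.00173). In CAKI-1 its values were 5302 and 5161 with BCAA and 4617 and 4854 without, on the other side, with a log2 difference of 0.14 that was not called (95% interval 0.02 to 0.27, limma adjusted p = 0.11). The 2 effects differed by -0.43 (SE 0.08, limma adjusted p = 0.00228). For each of the 3 coactivators the difference between the lines was thus called.

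ESRRA (ENSG00000173153, chr11:64305572-64316743, plus strand) encodes ERRα, the orphan nuclear receptor through which PGC-1α reaches many respiratory chain genes. In 769-P its values were 3654 and 3757 with BCAA and 4858 and 4738 without. In CAKI-1 they were 2937 and 3159 with BCAA and 3704 and 3731 without. Both lines thus had both BCAA libraries below. ESRRA fell by 0.37 on the log2 scale in 769-P (SE 0.05, limma adjusted p = 6.43e-05) and by 0.29 in CAKI-1 (SE 0.06, limma adjusted p = 0.00779), and the difference between these effects was -0.09 (95% interval -0.25 to 0.08, limma adjusted p = 0.49). Of its exon bases, 9.37% are shared with TRMT112 on the opposite strand, and it has the pseudogenes ESRRAP1 and ESRRAP2, whose share in these counts was not tested.

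ESRRG (ENSG00000196482, chr1:216503246-217137755, minus strand), the gene of the related receptor ERRγ that marks highly oxidative tissues, was read from few fragments. In 769-P there were 18 and 16 reads with BCAA and 1 and 3 without, a ratio of 5.54 with a 95% exact interval of 1.98 to 21.5 that covers counting error only. limma called it higher (log2 difference 2.18, SE 0.68, adjusted p = 0.0233), while DESeq2 on the recovered reads did not (adjusted p = 0.0980), and the size of the fitted difference depends on the pseudocount. In CAKI-1 there were 15 and 33 reads with BCAA and 10 and 7 without, with a log2 difference of 1.04 (95% interval -0.09 to 2.17, limma adjusted p = 0.19).

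PPARD (ENSG00000112033, chr6:35342558-35428191, plus strand) encodes PPARδ, a fatty acid receptor present in most cells. In 769-P it fell from 1684 and 1630 without BCAA to 1024 and 872 with BCAA, 1.75-fold lower, or by 0.81 on the log2 scale (SE 0.08, limma adjusted p = 7.61e-06). It was the member with the largest called fall. In CAKI-1 the values of 866 and 939 with BCAA lay between the 980 and 763 without, so the groups overlapped, with a log2 difference of 0.06 (95% interval -0.19 to 0.31, limma adjusted p = 0.77). The effect in 769-P was 0.87 below that in CAKI-1 (difference -0.87, SE 0.16, limma adjusted p = 0.00134).

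PPARA (ENSG00000186951, chr22:46150521-46243756, plus strand) encodes PPARα, the receptor that drives fatty acid oxidation in liver and proximal tubule. In 769-P its values were 873 and 861 with BCAA and 1019 and 1065 without, a fall of 1.20-fold (log2 difference -0.26, SE 0.07, limma adjusted p = 0.0136). In CAKI-1 they were 605 and 627 with BCAA and 648 and 627 without, nearly alike, with a log2 difference of -0.05 (95% interval -0.25 to 0.15, limma adjusted p = 0.77). The difference between the 2 effects was not called (-0.21, 95% interval -0.46 to 0.03, limma adjusted p = 0.21), so a fall of PPARA in 769-P alone was not shown.

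NRF1 (ENSG00000106459, chr7:129611714-129757082, plus strand) encodes nuclear respiratory factor 1, which binds the promoters of many respiratory chain and mitochondrial import genes. In 769-P it stood at 986 and 934 with BCAA and 739 and 778 without, and rose 1.27-fold, by 0.34 on the log2 scale (SE 0.08, limma adjusted p = 0.00451). In CAKI-1 the values were 597 and 607 with BCAA and 669 and 607 without, the groups being almost in contact, with a difference of -0.08 (95% interval -0.29 to 0.13, limma adjusted p = 0.62). The effect was 0.42 higher in 769-P (SE 0.12, limma adjusted p = 0.0257), a call that 5 of 8 fits with a library left out did not give. A short rRNA pseudogene, RNA5SP244, covers 2.72% of the exon bases of NRF1.

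TFAM (ENSG00000108064, chr10:58385022-58399221, plus strand) encodes the factor that packages mitochondrial DNA and starts its transcription. In 769-P its values were 7081 and 6770 with BCAA and 5927 and 6127 without. In CAKI-1 they were 5036 and 4784 with BCAA and 3803 and 3732 without. Both BCAA libraries were above both others in each line, and TFAM rose 1.15-fold in 769-P (log2 0.20, SE 0.05, limma adjusted p = 0.00474) and 1.303-fold in CAKI-1 (log2 0.38, SE 0.06, limma adjusted p = 0.000986). The difference of -0.18 between the effects was not called (95% interval -0.34 to -0.03, limma adjusted p = 0.0969). Reads of its pseudogenes TFAMP1 and TFAMP2 may be counted with it, which was not tested.

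KLF15 (ENSG00000163884, chr3:126342635-126357442, minus strand) encodes a zinc finger factor known to drive the breakdown of BCAA in muscle and liver. It had 2 and 2 reads with BCAA and 1 and 0 without in 769-P, and 1 and 1 with BCAA and 1 and 3 without in CAKI-1. Every library was at or under the floor of 3 reads, so no fold is given, and a BCAA effect was not detectable at this depth.

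**Figure D3:**
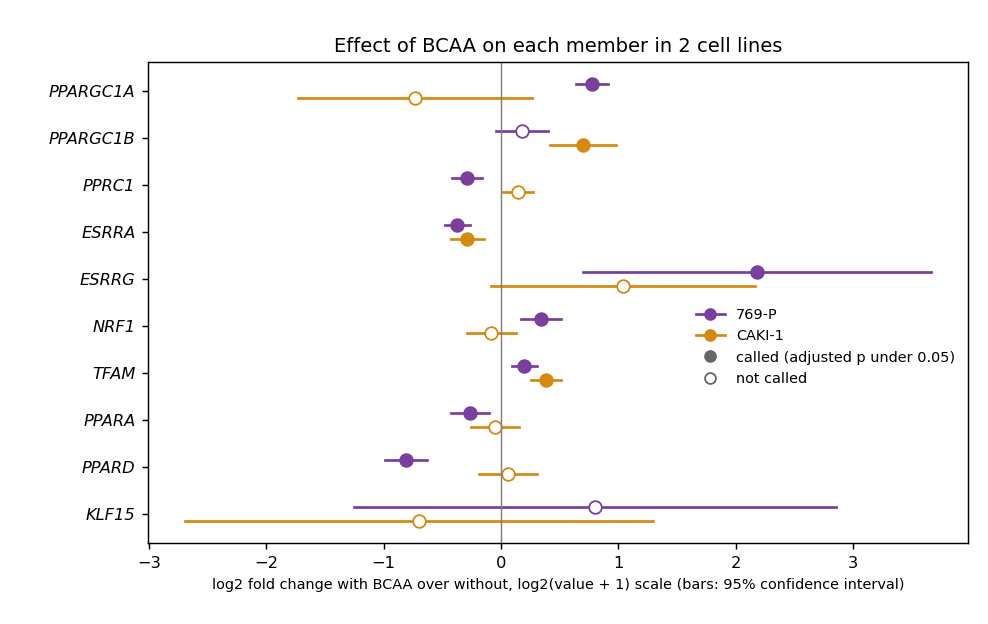
Log2 fold change with BCAA over without, on the log2(value + 1) scale, for the 10 genes in 769-P (purple) and CAKI-1 (orange); bars are 95% confidence intervals of the limma fit, filled points are called at an adjusted p under 0.05. ESRRA and TFAM are filled on the same side in both lines, PPARGC1A is at 0.78 in 769-P and -0.73, not called, in CAKI-1, and the bars of ESRRG and KLF15 are wide.

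The difference of the BCAA effect between the lines was called for 5 of the 10 genes, in a test over 19406 genes. PPARGC1A and NRF1 went further up in 769-P, where 10.9% of all genes did so, and PPARGC1B, PPRC1 and PPARD went further down, where 10.1% did. For ESRRA, ESRRG, TFAM, PPARA and KLF15 it was not called. In every one of the 8 fits that left out 1 library, PPARGC1A, PPRC1 and PPARD were called. NRF1 was called in 3 of these 8 fits, not without either 769-P library with BCAA (adjusted p = 0.0929 and 0.0503), 769-P replicate 1 without BCAA (0.0925), CAKI-1 replicate 1 with BCAA (0.0528) or CAKI-1 replicate 1 without BCAA (0.09995). PPARGC1B was called in 2 of them, those without CAKI-1 replicate 2 of either condition, and had an adjusted p between 0.0607 and 0.143 in the other 6.

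Within a line, leaving out 1 library leaves 3, and the calls depend on how the spread is then estimated. With the spread of the remaining 3 libraries, PPARGC1A was called in 769-P whichever library was left out (limma adjusted p 0.0320 to 0.0454). ESRRA and PPARD were called without either BCAA library but not without replicate 1 or 2 of the other condition, where the adjusted p reached 0.0588 and 0.0791. PPRC1 was called only without BCAA replicate 1 (adjusted p = 0.0434, up to 0.191 elsewhere), and NRF1, TFAM, PPARA and ESRRG were called in none of these 4 fits. In CAKI-1 no gene at all was called, against 4084 to 5590 genes and 3 or 4 of the members at an unadjusted p under 0.05.

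With the spread taken from the other 7 libraries, PPRC1, ESRRA and PPARD were called in 769-P whichever library was left out, and PPARGC1B, TFAM and ESRRA in CAKI-1 likewise. PPARGC1A in 769-P, whose spread then includes the few reads of CAKI-1, was called without BCAA replicate 1 or replicate 2 without BCAA, and had an adjusted p of 0.0713 and 0.0539 without the others. In 769-P, NRF1 and TFAM lost the call without BCAA replicate 1 (0.0571 and 0.0583) or replicate 1 without BCAA (0.0536 and 0.0686). ESRRG lost it without replicate 1 without BCAA (0.0655), and PPARA kept it only there (0.0438, against 0.0594 to 0.106). In CAKI-1 the log2 difference of PPARGC1A was -0.97 without BCAA replicate 2 and -0.97 without replicate 1 without BCAA. It was -0.49 without BCAA replicate 1 and -0.49 without replicate 2 without BCAA. The spread in these fits is shared with 769-P, where the gene had far more reads.

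Of 16 genes that copy, transcribe and maintain mitochondrial DNA, the molecule TFAM binds, 5 rose and 6 fell in 769-P (median log2 difference 0.08). In CAKI-1, 2 rose and 1 fell (median 0.05). Among all genes, 20.3% rose and 18.2% fell in 769-P, and 10.8% and 9.05% in CAKI-1. In 769-P, MGME1, a mitochondrial exonuclease, rose from 1999 ± 37.7 to 3021 ± 110 (log2 0.60, SE 0.06, limma adjusted p = 4.41e-06), and TEFM, an elongation factor, rose by 0.41 (SE 0.11, adjusted p = 0.0108). LONP1, the matrix protease that degrades TFAM, fell there from 15972 ± 404 to 8849 ± 381 (log2 -0.85, SE 0.05, adjusted p = 3.01e-08), and TOP1MT, the mitochondrial topoisomerase, from 3304 ± 107 to 2288 ± 128 (log2 -0.53, adjusted p = 1.69e-05). MGME1 rose (log2 0.32, adjusted p = 0.0345) and TOP1MT fell (-0.29, adjusted p = 0.00718) in CAKI-1 as well, where POLG, the polymerase of mitochondrial DNA, rose by 0.29 (adjusted p = 0.0132). The 13 messages encoded by mitochondrial DNA were not analysed here.

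The list of genes known as targets of ERR and PGC-1 holds enzymes of the citrate cycle, subunits of the respiratory chain, antioxidant enzymes, UCP2, MFN2 and VEGFA. Of 22 genes, 16 rose and 2 fell in 769-P, with a median log2 fold change of 0.36, beside 20.3% and 18.2% of all genes. In CAKI-1, 6 rose and 2 fell, with a median of 0.11, beside 10.8% and 9.05% of all genes. UCP2, an inner membrane carrier, rose in 769-P from 44.3 ± 8.23 to 120 ± 2.34 (log2 1.42, SE 0.25, limma adjusted p = 0.000652), and IDH3A, a subunit of isocitrate dehydrogenase, from 1242 ± 77.8 to 2040 ± 216 (log2 0.71, SE 0.08, adjusted p = 1.87e-05). The 2 that fell there were VEGFA, the angiogenic factor, from 24207 ± 89.7 to 2577 ± 62.4 (9.39-fold lower, log2 -3.23, SE 0.04, adjusted p = 2.52e-12), and SOD2, the mitochondrial superoxide dismutase, from 44588 ± 324 to 17225 ± 1077 (2.59-fold lower, adjusted p = 7.16e-10).

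In CAKI-1, CYCS (cytochrome c) rose by 0.52 on the log2 scale (SE 0.05, limma adjusted p = 8.22e-05) and IDH3A by 0.37 (adjusted p = 0.0106), while VEGFA fell by 0.42 (adjusted p = 0.0331) and GPX1, a glutathione peroxidase, by 0.24 (adjusted p = 0.0259). CYCS, IDH3A, UCP2, CAT and MDH2 were called higher in both lines and VEGFA lower in both. The list holds 9 subunits of the respiratory chain and ATP synthase, a subgroup singled out after its values were seen, so that its counts are a description. Of these, NDUFS1, SDHA, SDHB, UQCRC2, COX4I1, COX5A, COX6A1 and ATP5F1B rose in 769-P, 8 of 9 where 20.3% of all genes did, and UQCRC1 had a log2 difference of 0.08 that was not called. The 9 values ran from 0.08 to 0.65 in 769-P and from -0.14 to 0.18 in CAKI-1, where none was called by limma.

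Target genes of the PPARs, the partners of PGC-1 in lipid use, had 4 higher and 4 lower of 18 tested in 769-P and 2 higher and 3 lower of 17 in CAKI-1, where all genes had 20.3% and 18.2%, and 10.8% and 9.05%. ANGPTL4, a secreted inhibitor of lipoprotein lipase, fell in 769-P from 1295 ± 180 to 203 ± 55.5 (6.43-fold lower, log2 -2.68, SE 0.16, limma adjusted p = 8.55e-08) and in CAKI-1 from 1026 ± 31.9 to 586 ± 161 (log2 -0.84, SE 0.15, adjusted p = 0.00223). PLIN2, which coats lipid droplets, fell from 8079 ± 214 to 3007 ± 59.3 in 769-P (log2 -1.43, adjusted p = 7.77e-10) and by 0.36 in CAKI-1 (adjusted p = 0.0295), and CPT1A, the entry step of fatty acid oxidation, was called lower in both lines too. SLC25A20, the carnitine carrier, rose by 0.58 in 769-P (SE 0.12, adjusted p = 0.00160). UCP2, which is also in the list of ERR and PGC-1 targets, was called higher in both lines. UCP3 in CAKI-1 had 12 and 10 reads with BCAA and none without, which is at least 2.98-fold higher if each empty library is set to 3 reads (limma adjusted p = 0.01004). UCP3 passed the low-value filter there only through the libraries with BCAA, so this p-value is no separate support.

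**Figure D4:**
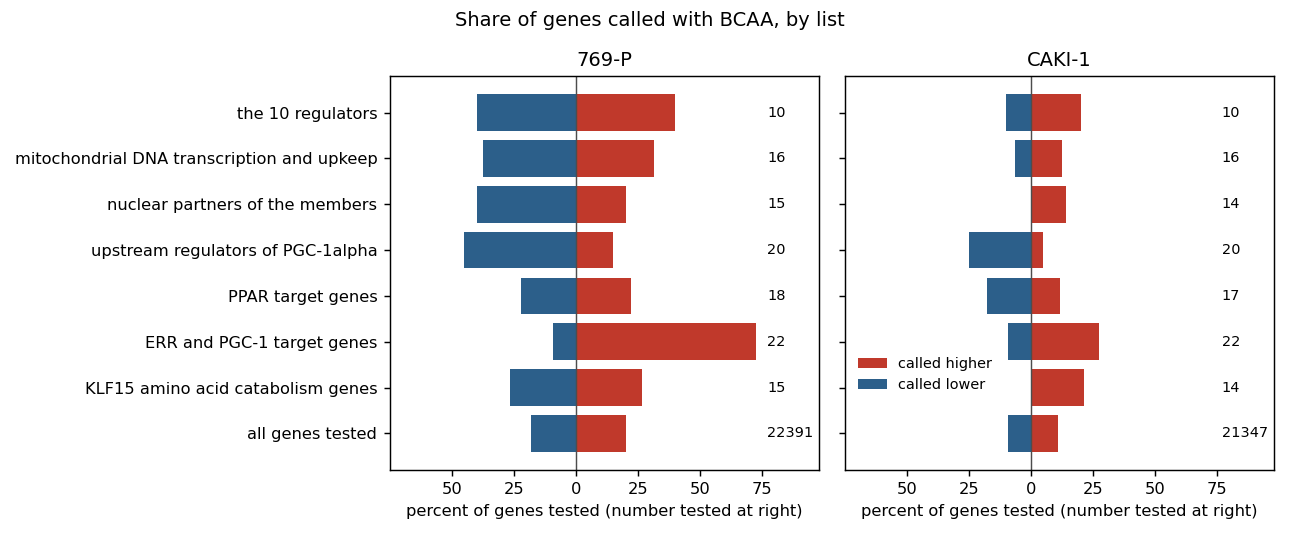
Percent of the genes tested that limma called higher (red, right) or lower (blue, left) with BCAA, for the 10 regulators, 6 lists of related genes and all genes tested, in each line, with the number tested at the right. In 769-P the ERR and PGC-1 targets have 16 of 22 called higher, against 20.3% of all genes.

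Among nuclear partners of the regulators, 3 of 15 tested rose and 6 fell in 769-P (median log2 fold change -0.16), and 2 of 14 rose and none fell in CAKI-1 (median -0.0026), beside the same shares of all genes, 20.3% and 18.2%, and 10.8% and 9.05%. The falls in 769-P included the related acetyltransferases CREBBP, from 4720 ± 158 to 2814 ± 266 (log2 -0.75, SE 0.07, limma adjusted p = 2.03e-06), and EP300, from 8635 ± 61.7 to 5642 ± 663 (log2 -0.62, SE 0.07, adjusted p = 1.19e-05). NRIP1, a corepressor of ERR and PPAR receptors, rose there from 9321 ± 471 to 14082 ± 753 (log2 0.60, SE 0.05, adjusted p = 1.80e-06), and GABPA, a subunit of NRF2/GABP, rose by 0.29 (adjusted p = 0.00297). In CAKI-1, HCFC1, a cofactor of PRC and GABP, rose by 0.46 (SE 0.10, adjusted p = 0.00663) and MED1, a Mediator subunit, by 0.22 (adjusted p = 0.0319). No gene of this list was called in the same direction in both lines.

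Of 20 regulators known to act on PGC-1α or its gene, 3 rose and 9 fell in 769-P, where 20.3% and 18.2% of all genes did, and 1 rose and 5 fell in CAKI-1, where 10.8% and 9.05% did. The medians were -0.05 and -0.07, beside -0.02 and -0.01 over all genes. HDAC5, a class IIa histone deacetylase that represses MEF2, fell from 683 ± 92.1 to 304 ± 7.18 in 769-P (2.24-fold lower, log2 -1.16, SE 0.11, limma adjusted p = 5.87e-06) and from 1698 ± 150 to 1044 ± 100 in CAKI-1 (log2 -0.70, SE 0.09, adjusted p = 0.000333). MEF2D and MEF2A, transcription factors that bind the PPARGC1A promoter, were called lower in both lines, and FBXW7, a ubiquitin ligase subunit that targets PGC-1α, was called higher in both. SIRT1, the deacetylase that activates PGC-1α, fell in 769-P from 2299 ± 28.8 to 1427 ± 13.4 (log2 -0.69, SE 0.06, adjusted p = 1.86e-06).

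CAMK4, a calcium-dependent kinase upstream of PPARGC1A, rose in 769-P from 324 ± 41.7 to 590 ± 52.8 (log2 0.87, SE 0.12, limma adjusted p = 0.000104), and KAT2A, the acetyltransferase that silences PGC-1α, rose by 0.27 (adjusted p = 0.00966). In CAKI-1, MEF2C fell from 248 ± 30.2 to 159 ± 9.96 (log2 -0.63, SE 0.16, adjusted p = 0.0162).

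Genes of amino acid breakdown that KLF15 controls in other tissues had 4 higher and 4 lower of 15 tested in 769-P and 3 higher and none lower of 14 in CAKI-1. Among all genes the shares were 20.3% and 18.2% in 769-P and 10.8% and 9.05% in CAKI-1. BCKDHB, a subunit of the BCAA keto acid dehydrogenase, rose in 769-P from 1037 ± 166 to 1557 ± 9.26 (log2 0.60, SE 0.10, limma adjusted p = 0.000307). GPT2, the mitochondrial alanine aminotransferase, fell there from 6013 ± 76.7 to 1926 ± 83.0 (3.12-fold lower, log2 -1.64, SE 0.05, adjusted p = 6.15e-10), and GPT, its cytosolic relative, from 74.6 ± 0.0502 to 37.0 ± 0.871 (adjusted p = 0.0139). OAT, ornithine aminotransferase, rose by 0.53 in 769-P (SE 0.06, adjusted p = 2.15e-05) and by 0.36 in CAKI-1 (SE 0.07, adjusted p = 0.00326). PPM1K, the phosphatase that activates the BCAA keto acid dehydrogenase, rose in CAKI-1 from 242 ± 2.55 to 399 ± 44.7 (log2 0.71, SE 0.13, adjusted p = 0.00261).

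The genes whose values over the 8 libraries, centred within each line, were nearest to those of a coactivator were found among 13376 genes with at least 10 reads in every library. For PPARGC1A they were FLRT3, PTPRU and C6orf226, at Euclidean distances of 0.43 to 0.47 on the log2 scale where the median gene was at 1.28. With 12 to 22 reads of PPARGC1A per CAKI-1 library, its distances carry much counting error. For PPARGC1B they were LIN54, ANKRD52 and FARP2 (0.10 to 0.12, median 0.91), and for PPRC1 they were ZNF142, ARHGEF11 and PANK3 (0.03 to 0.06, median 0.63). The likeness is a description over libraries that share their conditions, and no test was made of it.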

How the data were processed

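RNA-seq of 769-P and CAKI-1 cells with or without BCAA gave 8 libraries, grouped by the line and treatment in their labels. The authors deposited 1 table per line with a signal per gene, that is, the read count of each gene over the size factor of its library (0.777 to 1.32). The submitters' processing notes name Trim Galore, TopHat2 2.1.0, SAMtools 1.3.1, HTSeq 0.6.0, DESeq2, DESeq and hg38, in no stated order; strandedness and annotation are not given in the sources used here. All values (100%) were whole multiples of 1 read within 0.01, so reads were recovered.

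Identifiers were matched to GENCODE 29 (25032 of 25431 in 769-P, 23881 of 24190 in CAKI-1). Replicates differed by more than counting noise (chi-square per degree of freedom 3.26 to 11.9). limma 3.58.1 (R 4.3.3, trend) was fitted within each line on log2(value + 1), over genes whose mean reached 1, with Benjamini-Hochberg adjustment at 0.05. The pseudocount shrinks fold changes of genes with low values. The difference between lines was the interaction term of 1 fit over the 8 libraries. The test was tried on simulated data first. Count-based fits (edgeR 4.0.16, DESeq2 1.42.0) on recovered reads and other pseudocounts, filters, scalings, spreads and left-out libraries were alternatives. The fits that left out a library with the spread from the other 7 were added after seeing the data. The exact interval of ESRRG and the floor of 3 reads per library cover counting error only. All other 95% intervals come from the limma fits and rest on the spread between libraries.

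The members and the gene lists were chosen with earlier results of these data known. 1 gene of the list of nuclear partners is not reported here and was left out of its counts. Named genes of a list are, per line, the 2 with the largest called rise and the 2 with the largest called fall among genes with at least 10 reads in every library of the higher group, and up to 4 called in the same direction in both lines. Likeness was the Euclidean distance over the 8 libraries. Promoter sequences come from RefSeq (GRCh38.p14) and gene coordinates from GENCODE 29.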

Additional observations from a re-analysis of the deposited data

Results flagged for a closer look

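Each result here was singled out because the effect of BCAA differed between 769-P and CAKI-1 in the limma interaction test, at an adjusted p under 0.05 over 19406 genes. Differences are log2 fold changes in 769-P minus those in CAKI-1. Of the regulators, PPARGC1A (1.504, adjusted p = 0.00177) and NRF1 (0.42, adjusted p = 0.0257) went further up in 769-P. PPARD (-0.87, adjusted p = 0.00134), PPARGC1B (-0.52, adjusted p = 0.0395) and PPRC1 (-0.43, adjusted p = 0.00228) went further down. The calls of NRF1 and PPARGC1B were lost in 5 and 6 of 8 fits that left out a library, and that of PPARGC1B also with TMM (adjusted p = 0.0535) and thinned reads (0.0845). The SE of the PPARGC1A difference (0.28) is below that of its CAKI-1 effect alone (0.45), since both lines share 1 spread in the fit. The reads behind PPARGC1A in CAKI-1 were 12 to 22 per library, and depth went with the condition in 769-P. Whether either has a part in these differences was not tested. In the fit on thinned reads, which keeps ratios on average, the difference of PPARGC1A was 1.26 (limma adjusted p = 0.0147).

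Among the named list genes, those that fell in both lines but further in 769-P were VEGFA (-2.81), ANGPTL4 (-1.85), PLIN2 (-1.07) and HDAC5 (-0.46, adjusted p = 0.0481). UCP2 rose in both lines, further in 769-P (1.06). Called in 1 line only were SOD2 (-1.10), LONP1 (-0.75), CREBBP (-0.74) and SIRT1 (-0.51), which fell in 769-P, and NRIP1 (0.62), BCKDHB (0.79), CAMK4 (0.80) and SLC25A20 (0.57), which rose there.

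GPT2 fell in 769-P and rose in CAKI-1, where its log2 fold change was 0.30, a difference of -1.94 (adjusted p = 6.54e-09). POLG (-0.51, adjusted p = 0.000557) and MED1 (-0.48, adjusted p = 0.00962) likewise fell in 769-P and rose in CAKI-1. MEF2C differed by 1.60 (adjusted p = 0.00848), with a fall in CAKI-1 and a log2 fold change of 0.97 in 769-P that was not called. UCP3 differed by -4.07 in the fit (adjusted p = 0.00424), a size that depends on the pseudocount because the gene was at 0 reads in CAKI-1 without BCAA. It passed the low-value filter in CAKI-1 only through the libraries with BCAA, so this p-value is no separate support.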

How the results depend on the processing

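Over the alternatives that kept all libraries, the direction of each of the 10 regulators was the same in each line and in the difference between lines, and these called changes lost the threshold: ESRRG in 769-P with DESeq2 (adjusted p = 0.0980), and, in the difference between lines, PPARGC1B with TMM (0.0535), with thinned reads (0.0845) and with the replicate block (0.0739) and NRF1 with the replicate block (0.0538). Replicate numbers did not pair the samples (the correlation of same-numbered deviations was -0.0148 in 769-P and 0.0200 in CAKI-1), and the block left 1 regulator further up in 769-P in place of 2, PPARGC1A. PPARGC1A in CAKI-1 gained a call with the spread of all 8 libraries, which made 2 regulators called lower there. That spread is shared with 769-P, where the gene had far more reads. Asking also for a 1.5-fold change left 1984 genes higher and 1911 lower in 769-P (regulators 2 and 1), 725 and 481 in CAKI-1 (1 and 0), and 917 further up and 927 further down (1 and 1). Quantile normalization gave 1417 genes higher in CAKI-1 in place of 2312. The median level without BCAA was 4.54 RPKM in 769-P and 3.06 in CAKI-1 with the length of the longest transcript, in place of 3.26 and 2.56.

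With 1 library left out and the spread of those remaining, 1173 to 1632 genes were called higher and 658 to 1456 lower in 769-P (regulators 1 and 0 to 3), and 0 and 0 in CAKI-1 by limma (regulators 0 and 0), where 4084 to 5590 genes had an unadjusted p under 0.05. With the spread from the other 7 libraries, the ranges were 3375 to 3603 and 2860 to 3109 in 769-P (regulators 0 to 4 and 3 to 4) and 1918 to 2497 and 1528 to 2191 in CAKI-1 (regulators 2 and 1 to 2). For the difference between lines, 1531 to 2146 genes went further up and 1376 to 1967 further down (regulators 1 to 2 and 2 to 3). Changes of sign in these fits, none of a called value, gave log2 fold changes in CAKI-1 of -0.12 to 0.24 for PPARD, -0.017 to 0.15 for CAMK4, -0.14 to 0.12 for CREBBP (0.069 in a further fit), -0.022 to 0.16 for GABPA, -0.079 to 0.030 for NRIP1, -0.078 to 0.11 for SLC25A20 (-0.013 in a further fit) and -0.11 to 0.14 for TEFM (-0.062 in a further fit), and in 769-P of -0.028 to 0.18 for HCFC1 and -0.22 to 0.78 for PPM1K. The differences between lines that changed sign were those of CYCS (-0.084 to 0.0067), FBXW7 (-0.11 to 0.030), GPT (-0.60 to 0.0056), KAT2A (-0.0093 to 0.13) and PPM1K (-0.93 to 0.066). With all libraries in, signs changed for CREBBP in CAKI-1 with reads scaled to equal totals (0.0096), SLC25A20 there with quantile normalization (-0.0067) and thinned reads (-0.011), TEFM there with thinned reads (-0.057), and the differences of CYCS with quantile normalization (0.0064) and FBXW7 with thinned reads (0.013). The causes were not tested. Depth limits ESRRG, KLF15 and, in CAKI-1, PPARGC1A.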
